A study of Mus musculus with 6 samples.

Results

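The genes described here encode the proton pump of the lysosome and the enzymes and membrane proteins that depend on the acid it makes. They are 41 genes, chosen by symbol from a list of V-ATPase and lysosomal genes, of 46078 genes in a table of normalized read counts from the mouse striatum. They comprise 17 subunits of the V-ATPase, 14 lysosomal hydrolases and 10 other members, of which 6 are membrane proteins, 3 are soluble cofactors of the lumen and 1 is the transcription factor Tfeb. All 41 were found by Ensembl identifier in the GENCODE M21 annotation of GRCm38, and all had a mean of at least 10 normalized read counts over the 6 mice, the minimum for the test across 17605 genes. The fewest reads recovered for any of them in any library were 229.

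RNA was sequenced from the striatum of 3 Shank3 TG mice and 3 WT mice, with 1 library per mouse. All 6 mice were 12 weeks old, on the C57BL/6J strain, and male by the paper's methods. The TG mice carried an EGFP-tagged Shank3 transgene and overexpress this postsynaptic scaffold protein, and the WT mice lacked it. The question asked of these genes was whether the lysosomal system, and within it the pump against the hydrolases, differed in RNA level between the genotypes. Whole striatum holds several cell types, so fewer cells of a type and less RNA per cell cannot be told apart.

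The V-ATPase is a rotary pump that spends ATP to move protons into lysosomes, endosomes and synaptic vesicles. Its V1 sector lies in the cytosol and splits ATP, its V0 sector lies in the membrane and carries the protons, and accessory proteins help to assemble and place it. In neurons the same pump acidifies synaptic vesicles, where the proton gradient drives transmitter loading. Lysosomal hydrolases work best in the acid lumen, and many of their genes, like those of the pump, hold a short palindromic element that TFEB and its relatives bind.

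That element is shown first, as a description of the promoters. The members were chosen by symbol, but many genes of this kind are known to hold it. A share above that of all genes is therefore no independent finding. The genes compared were all those with a promoter at hand, with no filter on their level. RefSeq promoters on GRCm38.p6, from 250 bases before to 50 bases after the start, were at hand for 34 of the 41 members. The 7 members without one were Atp6v0a2, Atp6v1b2, Atp6v1c1, Atp6v1g1, Atp6v1h, Ctsb and Npc1. CACGTG, searched on both strands, stood in the promoter of 15 of the 34 members (44.1%) and of 2187 of 27025 genes in the promoter table (8.09%). TCACGTG, which contains it, stood in 13 members (38.2%, against 4.29% of all genes), and the longer TCACGTGA in 7 (20.6%, against 1.12%). The full CLEAR element, which is TCACGTGA with a G before it and a C after it, stood in 1 member, Cln3 (2.94%, against 0.370%). These motifs are nested, so a promoter with a longer one is counted for each shorter one too, and a match describes the letters in this window and not a bound site.

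A few windows are given from 5′ to 3′ on the strand of the gene, with the longest match in capitals. They were picked to show the full element in Cln3, the TCACGTGA form in pump and hydrolase genes, and the shorter form in Atp6v0b, the pump gene with the lowest fold change.
Cln3, chr7:126583340-126583369, minus strand: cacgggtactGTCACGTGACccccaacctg
Atp6v0d1, chr8:105566050-105566079, minus strand: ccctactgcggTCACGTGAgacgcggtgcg
Atp6v1a, chr16:44139373-44139402, minus strand: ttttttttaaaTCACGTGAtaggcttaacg
Ctsa, chr2:164833749-164833778, plus strand: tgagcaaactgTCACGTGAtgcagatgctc
Ctsd, chr7:142387908-142387937, minus strand: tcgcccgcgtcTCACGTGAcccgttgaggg
Mcoln1, chr8:3500462-3500491, plus strand: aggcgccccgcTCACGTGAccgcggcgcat
Gla, chrX:134601182-134601211, minus strand: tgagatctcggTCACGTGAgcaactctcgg
Atp6v0b, chr4:117887330-117887359, minus strand: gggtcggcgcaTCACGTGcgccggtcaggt
Lamp1 held CACGTG at 4 places in its window, more than any other member with a promoter at hand. Of the other members, Ctsa, Ctsd, Gla, Mcoln1, Cln3 and Atp6v0b each held it at 2 places.

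Shank3 checked the labels. Its normalized read count was 29891, 28309 and 26044 in the TG mice, against 13807, 12918 and 13865 in WT mice. Every TG mouse had far more than any WT mouse, and the log2 fold change was 1.05 ± 0.060 (SE, n = 3 per genotype), with an adjusted P value of 7.04e-05 (limma with Benjamini-Hochberg adjustment). It was the 1 gene of 17605 that passed this test (0.00568% of genes tested). The reads recovered per library totalled 27689589 to 36647626. TG replicate 1 stood apart in markers of choroid plexus and of medium spiny neurons. The summed markers of choroid plexus, the epithelium that makes cerebrospinal fluid, were 29244 normalized read counts there and 8131 to 9592 in the other 5 mice. By their median log2 ratio to WT mice, these markers were raised in TG replicate 2 as well (1.00, against 2.98 in TG replicate 1). The summed markers of medium spiny neurons, the main neurons of the striatum, were lowest in TG replicate 1, at 169622. In the other mice they were 197284 to 235682. TG replicate 2 had the lowest summed markers of cortical excitatory neurons, 26708, against 31104 to 38185 in the other mice.

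None of the 41 members passed the adjusted test, with limma or with edgeR's quasi-likelihood test, DESeq2 or limma-voom on the recovered reads. The smallest adjusted P value of a member was 0.971 with limma, 0.976 with edgeR and 0.975 with limma-voom, and DESeq2, which called 7 of all genes (0.0398%), gave 1.00. At an unadjusted P value under 0.05, limma picked 2 members with a higher level in TG mice, the pump genes Atp6ap2 and Atp6v1a, and 1 with a lower level, the pump gene Atp6v0b. The shares for all genes tested were 1.98% higher and 2.33% lower, and each of the other 3 tools also gave 2 higher and 1 lower members (of all genes, either way, edgeR gave 4.38%, DESeq2 2.45% and limma-voom 4.24%). The values of the 3 TG mice lay above those of the 3 WT mice in 4 members, Atp6v1b2, Atp6ap1, Atp6ap2 and Ppt1, and below them in another 4, Atp6v0b, Ctsa, Arsb and Tfeb. Over all genes tested these shares were 5.06% above and 5.05% below, or 10.1% in either direction.

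The differences were small in size. The mean in TG mice differed from that in WT mice by 2.86% in the median member, and the difference in means ran from -11.3% (Tfeb) to 10.8% (Atp6v1a). The 95% interval of the difference lay within 1.2-fold in either direction for 38 of the 41 members, the exceptions being Atp6v1a (log2 0.016 to 0.28), Naglu (-0.28 to 0.19) and Tfeb (-0.37 to 0.025). The members were also measured closely, since 38 of them had a mean above the median of the genes tested (488 normalized read counts), and 38 had an SD between mice of the same genotype under the median SD of the genes tested (0.11 on the log2 scale). The median SD of the members was 0.056. The genotypes differed by more than that gene's SD in 14 members, against 29.2% of genes tested.

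**Figure D1:**
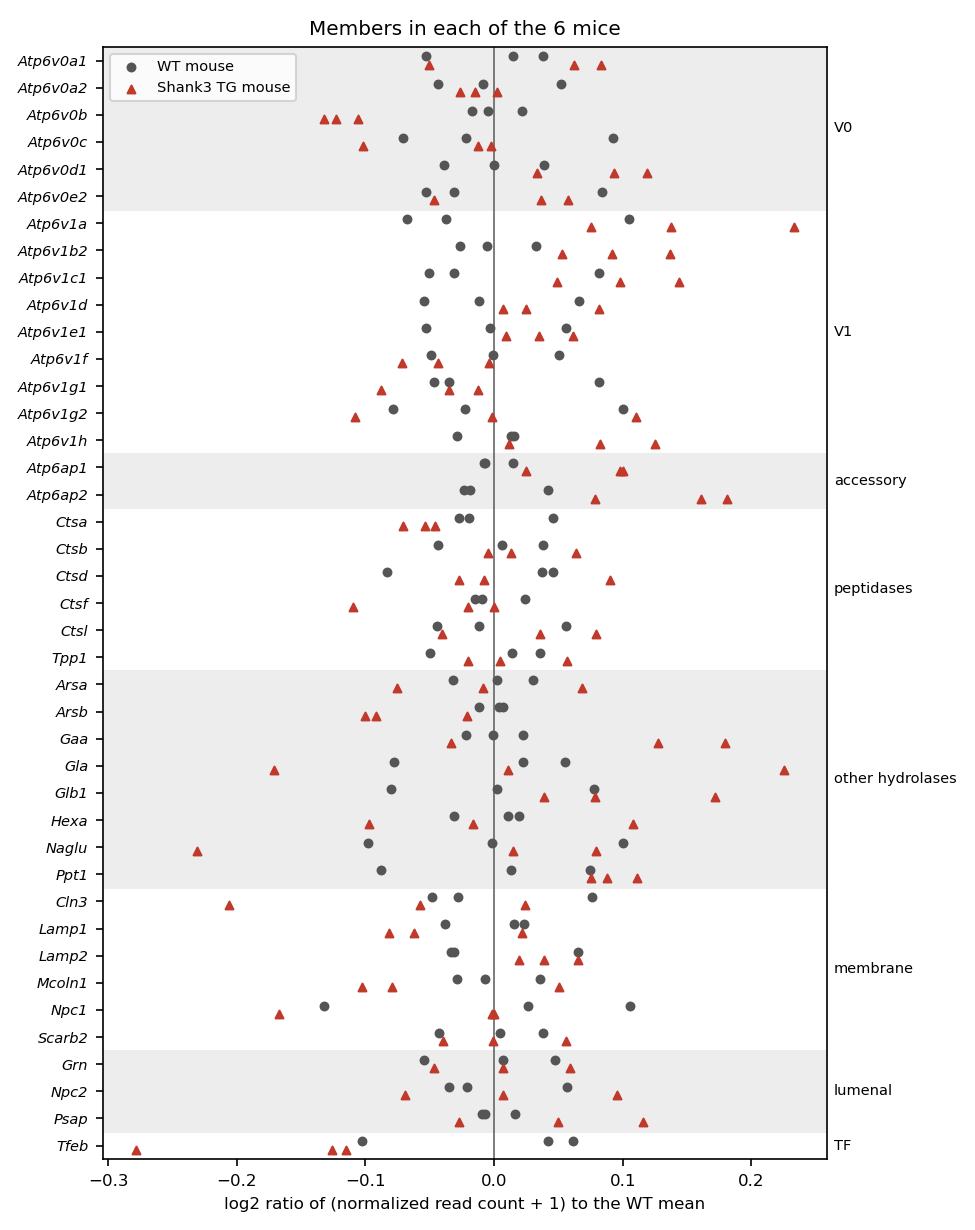
Each of the 41 members (rows) in each mouse, as the log2 ratio of (normalized read count + 1) to the mean of the WT mice (x axis), with TG and WT mice in different symbols. Most points lie close to 0, TG and WT points are apart in 8 rows, and Tfeb and the genes with low counts, Gla and Naglu, spread most.

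**Figure D2:**
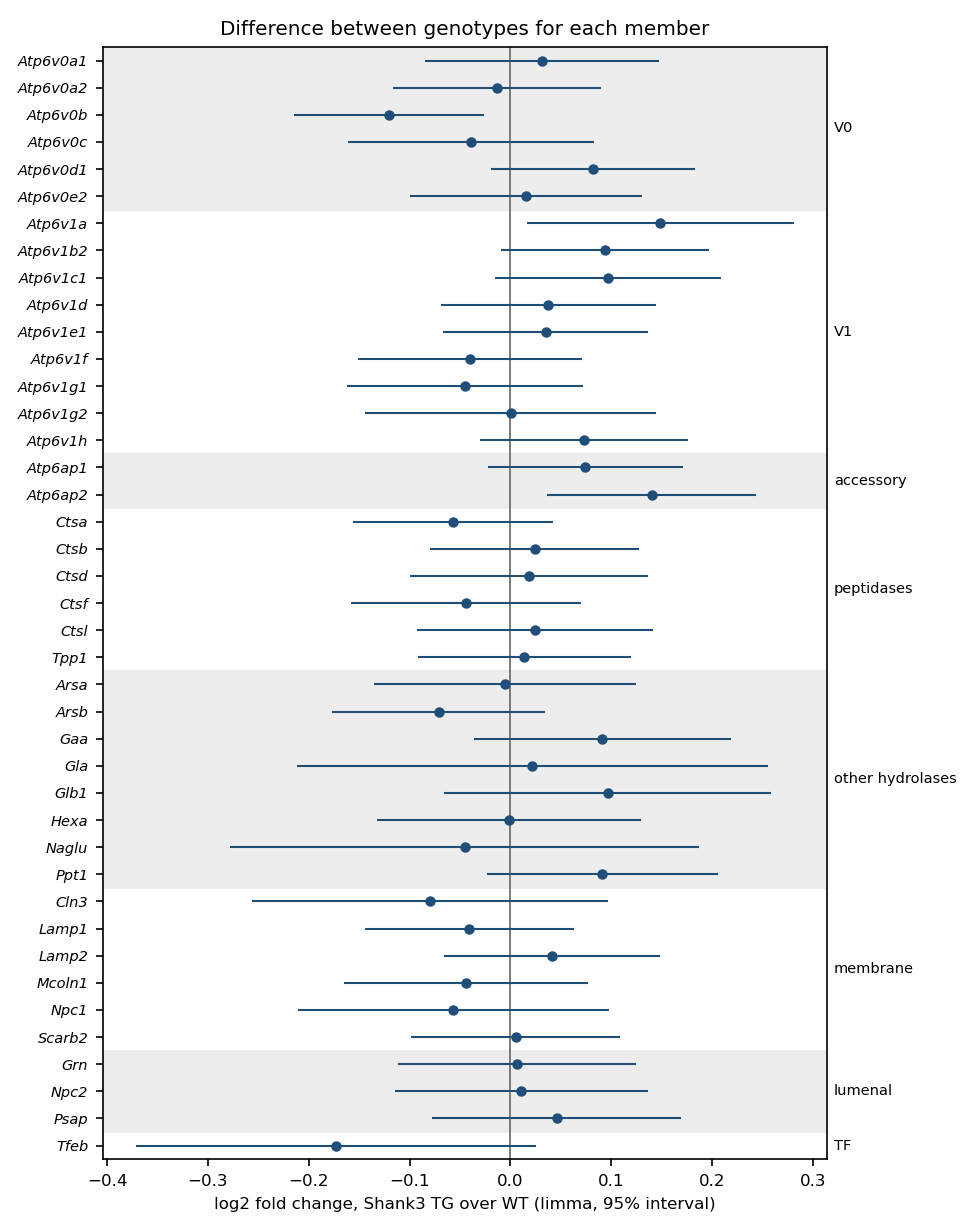
Log2 fold change of each member (rows), Shank3 TG over WT, with its 95% interval from limma as a line. All but 3 intervals stay within 1.2-fold, and those of Atp6ap2, Atp6v1a and Atp6v0b do not cross 0.

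Levels between genes were compared as normalized read counts per kb of the longest principal transcript. Psap, which encodes the precursor of the saposins that present sphingolipids to their hydrolases, led with 17472 per kb. The next 4 were pump genes: Atp6v1g2 (6549 per kb), Atp6v1e1 (6218), Atp6v1b2 (6118) and Atp6v0e2 (4580). Ctsd, the aspartic protease cathepsin D, followed with 4304 per kb. The lowest were Tfeb (129 per kb), the heparan sulfate enzyme Naglu (106) and Gla, α-galactosidase A (103). By normalized read count, the 17 pump genes all lay at or above percentile 75.7 of the genes tested, and the 14 hydrolases spread from percentile 39.8 to 98.8.

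In the V0 sector, 3 of 6 genes had a higher and 3 a lower level in TG mice, and the median log2 fold change was 0.0013 (-0.0061 to 0.017 with a mouse left out). Atp6v0b encodes the c″ subunit of the ring that carries protons across the membrane (ENSMUSG00000033379, chr4:117884326-117887333, minus strand). Its normalized read count was 3121, 3064 and 3085 in the TG mice, against 3349, 3409 and 3319 in WT mice. All 3 TG mice lay below all 3 WT mice, and within each genotype the mice were close together. The log2 fold change was -0.12 ± 0.043 (SE, n = 3 per genotype), a difference in means of -8.01%, with an unadjusted limma P value of 0.017 and an adjusted one of 0.971. With each mouse left out in turn it ranged from -0.13 to -0.11, with unadjusted P values between 0.021 and 0.062, and after a correction for the GC content of transcripts no member was lower at an unadjusted P value under 0.05.

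Atp6v0c encodes the other ring subunit, c, and its values were 2731, 2907 and 2927 in the TG mice, against 2791, 3126 and 2888 in WT mice. The groups overlapped. A processed pseudogene of it, Atp6v0c-ps2, had a mean of 134 normalized read counts, so a small part of its reads may have been assigned between the copies. Atp6v0d1 encodes subunit d, which links the ring to the central stalk, with 5606, 5378 and 5708 in the TG mice, against 5401, 5117 and 5255 in WT mice. Here TG replicate 2 lay below WT replicate 1, and the log2 fold change was 0.082 ± 0.046 (SE). Atp6v0a1, the main neuronal a subunit and the V0 gene with the highest read count, had 16082, 14652 and 15843 in the TG mice, against 14629, 15586 and 15335 in WT mice. TG replicates 1 and 3 lay above all WT mice and TG replicate 2 lay within their range, with a log2 fold change of 0.032 ± 0.052 (SE). Atp6v0e2 and Atp6v0a2 differed by 0.016 and -0.013 on the log2 scale.

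In the V1 sector, 7 of 9 genes had a higher and 2 a lower level in TG mice, and the median log2 fold change was 0.038. It ran from 0.011 without WT replicate 3 to 0.063 without WT replicate 1. Atp6v1a encodes the catalytic subunit A, which splits ATP (ENSMUSG00000052459, chr16:44085402-44139705, minus strand). Its normalized read count was 11896, 11389 and 12707 in the TG mice, against 10318, 11626 and 10538 in WT mice. The groups overlapped, because WT replicate 2 lay above TG replicate 2. The log2 fold change was 0.15 ± 0.060 (SE, n = 3 per genotype), a mean 10.8% higher, with an unadjusted limma P value of 0.031 and an adjusted one of 0.971. Leaving out each mouse moved the log2 fold change between 0.11 and 0.20 and the unadjusted P value between 0.0098 and 0.13.

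Atp6v1b2 encodes the B subunit, which alternates with A in the ATP-splitting head, and had 17819.9, 17338 and 18385 in the TG mice, against 16653, 17098 and 16412 in WT mice. Every TG mouse lay above every WT mouse, though TG replicate 2 and WT replicate 2 were close. The log2 fold change was 0.094 ± 0.047 (SE), with an unadjusted limma P value of 0.070. Atp6v1c1, the C subunit that holds the stator to the head and is released when the pump comes apart, had 6181, 5977 and 6381 in the TG mice, against 6114, 5653 and 5577 in WT mice, with an overlap from WT replicate 1 and a log2 fold change of 0.097 ± 0.051 (SE). The H subunit Atp6v1h, which regulates ATP splitting, stood at 0.073, and the stalk subunits Atp6v1d and Atp6v1e1 at 0.038 and 0.035. Atp6v1g2, the G subunit enriched in neurons, stood at 0.00022, and its sign turned with edgeR, limma-voom and TMM scaling. The 2 V1 genes with a lower level were Atp6v1f (-0.040) and Atp6v1g1 (-0.045).

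Both accessory subunits had a higher level in every TG mouse. Atp6ap2, the prorenin receptor, which takes part in assembly of the pump (ENSMUSG00000031007, chrX:12587801-12617049, plus strand), had 6666, 6295 and 6759 in the TG mice, against 5867, 6138 and 5886 in WT mice. The lowest TG mouse, replicate 2, lay just above the highest WT mouse, also replicate 2. The log2 fold change was 0.14 ± 0.047 (SE, n = 3 per genotype), a mean 10.2% higher, with an unadjusted limma P value of 0.013 and an adjusted one of 0.971. Leaving out each mouse moved the log2 fold change between 0.12 and 0.17 and the unadjusted P value between 0.0055 and 0.055. Atp6ap1, the Ac45 protein, had 9632, 9144 and 9616 in the TG mice, against 8938, 8943 and 9078 in WT mice. The 3 WT mice were nearly level and all below the TG mice, with a log2 fold change of 0.074 ± 0.044 (SE) and an unadjusted limma P value of 0.12.

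Of the pump subunits, 7 have paralogs elsewhere in the genome, most of which are known from other tissues such as kidney, bone or testis. In the striatum 1 paralog led in each case, by share of the normalized read count per kb over all paralogs of a subunit. Atp6v0d1 made up between 99.97% and 99.99% of subunit d in each mouse, Atp6v1b2 between 99.95% and 99.99% of subunit B, Atp6v1c1 between 97.3% and 98.1% of subunit C, and Atp6v0e2 between 93.9% and 94.8% of subunit e. Subunit E came almost entirely from Atp6v1e1, as Atp6v1e2 stood at 0.127 per kb against 6218. Atp6v0a1 held 86.4% ± 0.53 of subunit a in TG mice and 85.9% ± 0.71 in WT mice (SD, n = 3 each), with Atp6v0a2 at 451 per kb, the osteoclast form Tcirg1 at 164 and the kidney form Atp6v0a4 at 1.38. Subunit G was the most mixed. Atp6v1g2 held 79.4% ± 1.2 in TG mice and 78.9% ± 0.32 in WT mice (SD, n = 3 each). The broadly expressed Atp6v1g1, at 1724 per kb, made up the rest, as Atp6v1g3 had no reads. On lengths from all exons of each gene together, the share of Atp6v1g2 was 69.8%. The shares of Atp6v0a1 and Atp6v1g2 overlapped between the genotypes.

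**Figure D3:**
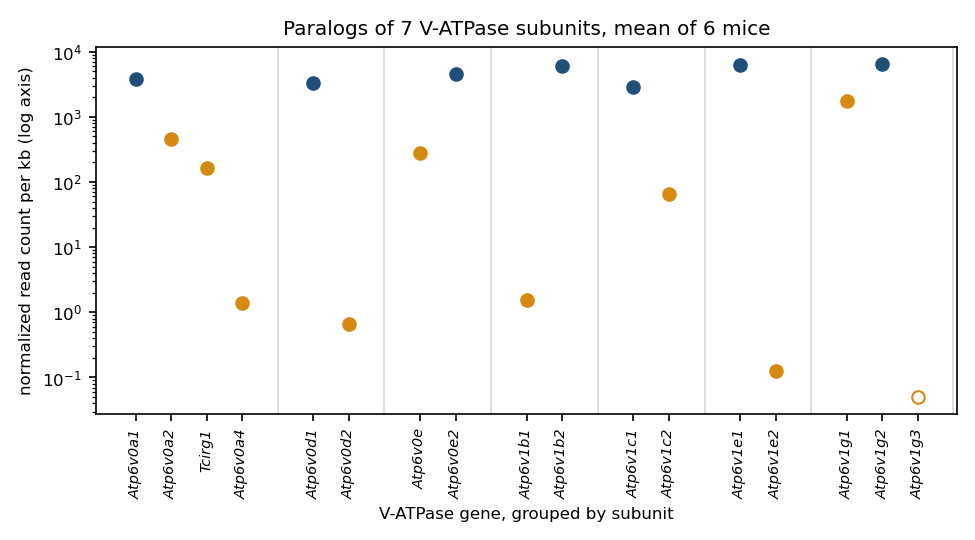
Mean normalized read count per kb over the 6 mice (y axis, log scale) of every paralog of 7 V-ATPase subunits (x axis). One gene per subunit lies above the others, from 6218 against 0.127 for E (Atp6v1e1 and Atp6v1e2) to 6549 against 1724 for G (Atp6v1g2 and Atp6v1g1), and the open circle at the bottom is Atp6v1g3, which had no reads and has no place on a log axis.

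Among the 14 hydrolases, 8 had a higher and 6 a lower level in TG mice, and none had an unadjusted P value under 0.05 (758 of all genes tested did, 4.31%). The 6 peptidases had a median log2 fold change of 0.016, which turned negative without TG replicate 1 or WT replicate 1 (-0.017 at the lowest). Cathepsin B (Ctsb), the cysteine protease with the highest read count of the hydrolases, had 16482, 16274 and 17067 in the TG mice, against 15843, 16396 and 16765 in WT mice, which overlapped. Ctsa, the protective protein that stabilizes β-galactosidase and neuraminidase, had 2806, 2758 and 2792 in the TG mice, against 2859, 2843 and 2991 in WT mice. All TG mice lay below all WT mice here, with a log2 fold change of -0.057 ± 0.045 (SE) and an unadjusted limma P value of 0.23. Ctsf, a cysteine protease, had 1517, 1496 and 1406 in the TG mice, against 1507, 1502 and 1543 in WT mice, so that TG replicate 3 alone lay below the rest by some distance. Ctsd, Ctsl and Tpp1, the tripeptidyl peptidase lost in a childhood neuronal ceroid lipofuscinosis, lay at 0.019, 0.025 and 0.014 on the log2 scale.

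The 8 glycosidases, sulfatases and the thioesterase split evenly, 4 higher and 4 lower, with a median log2 fold change of 0.010, which was -0.030 without TG replicate 1 and 0.051 once TG replicate 2 was left out. Ppt1, the thioesterase that removes palmitate from proteins, had 2981, 2955 and 3029 in the TG mice, against 2954, 2639 and 2830.4 in WT mice. The TG mice lay above the WT mice, but TG replicate 2 and WT replicate 1 were almost equal, with a log2 fold change of 0.091 ± 0.052 (SE). Gaa, acid α-glucosidase, which breaks down glycogen, had 11346, 10946 and 9789 in the TG mice, against 9871, 10179 and 10012 in WT mice. TG replicates 1 and 2 were above all WT mice and TG replicate 3 was below them, with a log2 fold change of 0.091 ± 0.058 (SE). Arsb, the sulfatase of dermatan sulfate, had 1731, 1721 and 1818 in the TG mice, against 1830.0, 1849.9 and 1854 in WT mice, without overlap and with a log2 fold change of -0.071 ± 0.048 (SE). Arsa, arylsulfatase A, is shown for its place. It lies 22.2 kb from Shank3 on the same chromosome (chr15:89472476-89477425) and had 974, 929.5 and 1027 in the TG mice, against 1000.3, 981 and 958 in WT mice. The groups overlapped, with a log2 fold change of -0.0053 ± 0.058 (SE), beside 1.05 for its neighbour. The remaining enzymes of this group, Hexa, Glb1, Gla and Naglu, stood at -0.0018, 0.096, 0.022 and -0.045 on the log2 scale.

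The membrane proteins had the lowest median of the larger groups, -0.042 on the log2 scale, with 4 of 6 lower and 2 higher in TG mice, and none with an unadjusted P value under 0.05. That median lay between -0.052 and -0.015 with a mouse left out, being nearest to 0 without WT replicate 3 (-0.015), TG replicate 2 or TG replicate 1. Lamp1, a heavily glycosylated protein that lines the lysosomal membrane, had 9638, 9093 and 8974 in the TG mice, against 9595, 9248 and 9648 in WT mice. Lamp2, its relative with a part in autophagy, had 2335, 2378 and 2303 in the TG mice, against 2220.3, 2377 and 2224 in WT mice. Neither pair of groups was apart, and the log2 fold changes were of opposite sign, -0.041 ± 0.047 and 0.041 ± 0.048 (SE). Cln3, a membrane protein lost in juvenile neuronal ceroid lipofuscinosis, had 509, 434 and 481 in the TG mice, against 528, 491 and 484 in WT mice, with a log2 fold change of -0.080 ± 0.080 (SE). The cholesterol exporter Npc1 stood at -0.056, the calcium channel Mcoln1 at -0.044 and Scarb2, which carries glucocerebrosidase to the lysosome, at 0.0052.

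The 3 lumenal proteins differed little. Psap had 49484, 44811 and 47253 in the TG mice, against 46180.2, 45441 and 45369 in WT mice, with the highest and the lowest value both in TG mice. Npc2, which hands cholesterol to Npc1, had 1837, 1728 and 1639 in the TG mice, against 1678, 1788 and 1694 in WT mice. The groups overlapped, with a log2 fold change of 0.011 ± 0.057 (SE). Grn, the progranulin gene, stood at 0.0066 ± 0.053 (SE).

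Tfeb, the transcription factor that turns on many lysosomal genes when it enters the nucleus, had the largest difference of the members. Its normalized read count was 288, 257 and 286 in the TG mice, against 322, 291 and 326 in WT mice. The TG mice lay below the WT mice, with TG replicate 1 and WT replicate 2 nearly level. The log2 fold change was -0.17 ± 0.090 (SE, n = 3 per genotype), with an unadjusted limma P value of 0.081. The exact two-sided permutation test gave 0.1, the smallest value that 3 against 3 mice allow. It gives this value for every gene whose groups do not overlap, which were 10.1% of genes tested, so it does not single out Tfeb. Members with CACGTG in the promoter stood at a median of -0.0053 on the log2 scale (7 of 15 higher in TG mice), and those without it at 0.014 (14 of 19 higher). For the longer TCACGTGA the order was the other way, 0.019 with it (4 of 7 higher) and 0.011 without it (17 of 27 higher). All genes tested had quartiles of -0.073 and 0.061.

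Set side by side, the median log2 fold change was 0.035 for the pump (12 of 17 genes higher, quartiles -0.013 and 0.082) and 0.016 for the hydrolases (8 of 14 higher). Over all genes tested the median was -0.0018 and 49.2% of genes were higher in TG mice. In each mouse the median log2 ratio of the 17 pump genes to the WT mean was 0.036, 0.025 and 0.062 in the TG mice, against -0.0043, -0.0070 and -0.022 in WT mice. Over all 17 genes the TG mice lay above the WT mice, without overlap. Within each sector the genotypes overlapped. The V0 medians were 0.019, -0.031 and 0.027 in the TG mice, against -0.0064, -0.0087 and -0.0087 in WT mice. Those of V1 were 0.012, 0.035 and 0.081, against 0.056, -0.012 and -0.047. Only the 2 accessory genes were apart. Because the ratios are to the WT mean, the WT medians lie near 0 by construction. How often other sets of genes are apart in this way was not tested. For the hydrolases the medians were 0.068, -0.0064 and -0.024 in the TG mice, against -0.015, 0.0050 and 0.012 in WT mice, with TG replicate 1 alone above the rest and TG replicate 3 lowest.

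The pump median minus the hydrolase median was -0.031, 0.031 and 0.086 in TG replicates 1, 2 and 3, against 0.011, -0.012 and -0.034 in WT replicates 1, 2 and 3. The genotypes overlapped in this measure. The group value, 0.019, was smaller than the SD of this measure between mice of a genotype (0.044), and it turned to -0.020 without TG replicate 3 and to -0.0049 without WT replicate 3. Without TG replicate 1, the library with the highest choroid plexus markers, the pump median was 0.048, the hydrolase median -0.013 and the difference 0.061. There Atp6ap2 stood at 0.13, Atp6v1a at 0.15 and Atp6v0b at -0.13. TG replicate 2, whose choroid plexus markers stood at a median log2 ratio to WT mice of 1.00, stayed in that fit, and without it the pump median was 0.054, the hydrolase median 0.025 and the difference 0.030.

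**Figure D4:**
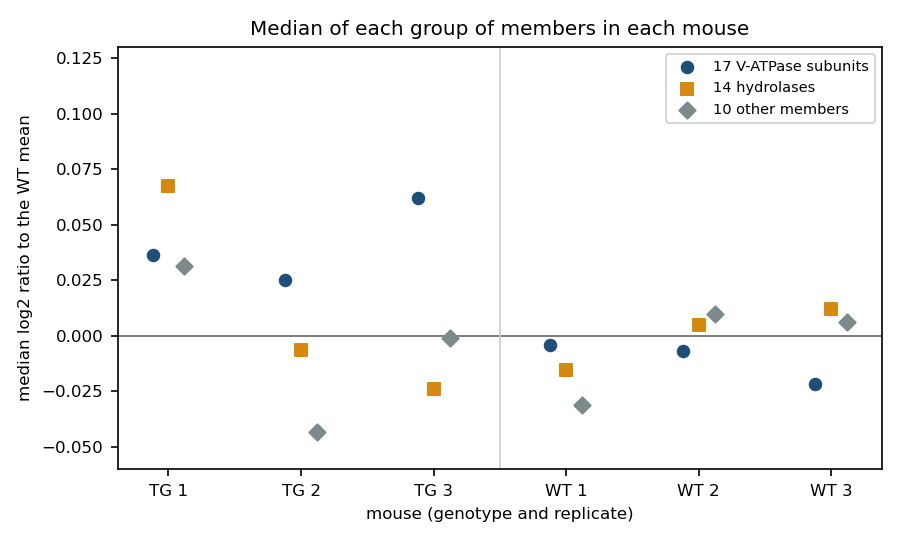
Median log2 ratio to the WT mean (y axis) of the V-ATPase subunits, the hydrolases and the other members in each of the 6 mice (x axis). The pump medians of the TG mice, from 0.025 to 0.062, lie above those of the WT mice, and the hydrolases and the other members overlap between the genotypes. The V0 and V1 sectors taken alone, which are not drawn, overlap as well.

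Within the pump, the median fold change was lowest for the shortest transcripts and highest between 2000 and 3000 bases. The 5 genes between 2000 and 3000 bases (Atp6v1b2, Atp6v1c1, Atp6v1h, Atp6ap1 and Atp6ap2) were all higher in TG mice, with a median of 0.094. The 2 of up to 1000 bases (Atp6v0b and Atp6v1f) were both lower, with a median of -0.080. The 6 between 1000 and 2000 bases had a median of 0.0079, with 4 higher. The 1 between 3000 and 4000 bases stood at 0.038, and the 3 over 4000 bases had a median of 0.032, with 2 higher. Across the 17 genes Spearman's rho was 0.61 with transcript length and -0.62 with GC content. It is a description over genes that share libraries, and length and GC content differ together. Among the 24 other members rho was 0.091 with length and -0.35 with GC content, and among 17519 genes tested 0.087 and -0.28. The shift with length was also seen in the 6231 genes whose mean was 1000 or more. There 199 genes of up to 1000 bases had a median of -0.047 (45 higher in TG mice), and 1247 genes over 6000 bases had one of 0.020 (790 higher). By mouse, both overlapped between the genotypes. The median ratios of the short genes to the WT mean were -0.053, -0.012 and -0.064 in the TG mice, against 0.025, 0.012 and -0.041 in WT mice. For the long genes they were -0.014, 0.040 and 0.046, against -0.039, 0.021 and 0.019. After a per-library correction for length, chosen after the data were seen, the pump median was 0.042 and the hydrolase median 0.021. After one for GC content they were 0.035 and 0.016. The part of length and GC content in the differences of single pump genes was not otherwise tested.

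**Figure D5:**
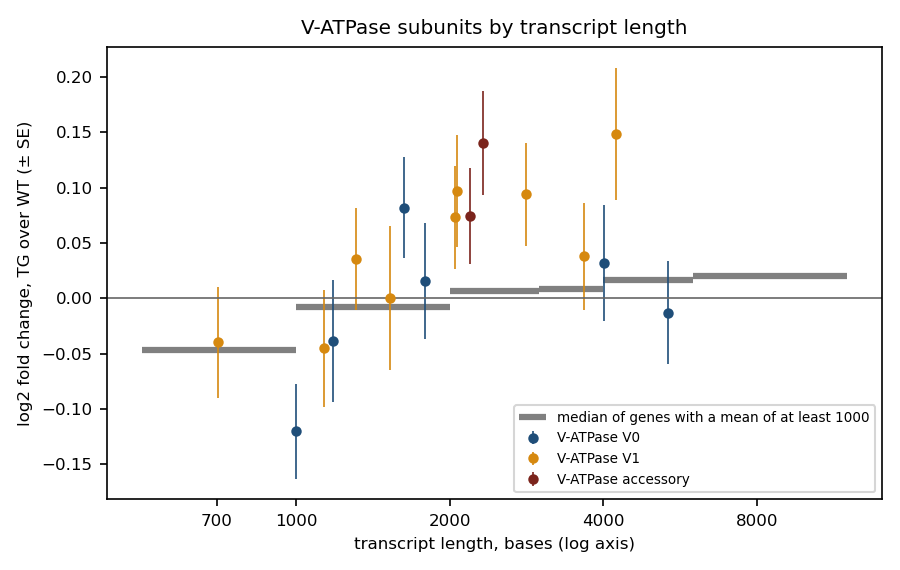
Log2 fold change of each V-ATPase gene (y axis, ± SE) against transcript length in bases (x axis, log scale), with grey bars for the median of genes whose mean was 1000 or more in each range of length, drawn from 500 to 12000 bases at the open ends. The 2 shortest pump genes lie below 0, at a median of -0.080, and those from 2000 to 3000 bases lie above it. The 3 pump genes over 4000 bases have a median of 0.032, with 2 above 0. The grey bars climb from -0.047 to 0.020.

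The wider lysosomal pathway was covered by 87 further genes, of which 80 were tested, and the highest mean among the other 7 was 4.57. Of the 80, 42 had a higher and 38 a lower level in TG mice, with a median log2 fold change of 0.0023, and none passed the adjusted test. The unadjusted P value was under 0.05 for 3 higher genes (Lipa, Oxr1 and Ncoa7) and 3 lower ones (Ctss, Tpcn1 and Cd68), where all genes tested gave 1.98% higher and 2.33% lower. Of the 4 tested pump subunits outside the members, 1 was higher and 3 were lower, with a median of -0.062. That median lay between -0.079 and -0.035 with a mouse left out. Of the 9 tested genes for assembly and regulation of the pump, 8 were higher, with a median of 0.066 (0.041 without TG replicate 2). Ncoa7, which binds the pump through its TLDc domain, had 2538, 2545 and 2715 in the TG mice, against 2289, 2464 and 2443 in WT mice, without overlap. Oxr1, of the same domain family, had 8068, 6685 and 8419 in the TG mice, against 6795, 7093 and 6323 in WT mice. Here TG replicate 2 lay among the WT mice, with a log2 fold change of 0.19 ± 0.081 (SE). The regulators Wdr7 and Dmxl2, which form the rabconnectin complex that helps to assemble the pump, stood at 0.093 and 0.066.

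Lipa, the acid lipase that frees cholesterol from its esters, had 640.1, 568 and 566 in the TG mice, against 505, 519 and 522 in WT mice. All TG mice were above all WT mice, TG replicate 1 most of all, with a log2 fold change of 0.20 ± 0.072 (SE) and an unadjusted limma P value of 0.021. The 34 other hydrolases together were 15 higher and 19 lower, with a median of -0.0050 (-0.027 to 0.0070 with a mouse left out). Tpcn1, a channel of endolysosomal membranes, had 1737, 1642 and 1714 in the TG mice, against 1817, 1788 and 1939.9 in WT mice, also without overlap.

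Ctss and Cd68 are lysosomal genes that microglia, the phagocytes of the brain, express strongly. Ctss had 1525, 1821 and 1566 in the TG mice, against 1892, 1769 and 1930.1 in WT mice, and Cd68 had 330.3, 294 and 295 in the TG mice, against 358, 355 and 335 in WT mice. Cd68 did not overlap between the genotypes, and in Ctss TG replicate 2 lay above WT replicate 2. Their log2 fold changes were -0.19 ± 0.071 and -0.19 ± 0.084 (SE). Beside them, all 15 listed microglial markers were lower in TG mice, with a median of -0.12, 4 of them at an unadjusted P value under 0.05 (2.33% of all genes tested) and 6 without overlap (5.05%). Their summed level was 14653 to 15596 normalized read counts in the TG mice and 15985 to 16472 in the WT mice. The lowest mean among the 15 markers was 144. Csf1r and Cx3cr1, the 2 most abundant, stood at -0.087 and -0.12. The part of the microglial level in Ctss, Cd68 and the lysosomal members was not tested.

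Other cell types that share these ubiquitous genes were measured in the same way. Of the 12 markers of medium spiny neurons, 11 were lower in TG mice, with a median of -0.14, led by Pde10a (-0.15) and Adcy5 (-0.14), and their sums overlapped between the genotypes. That median rested on TG replicate 1, as it was 0.0077 without it. It was -0.25 without TG replicate 2, and was also nearer to 0 without WT replicate 3. The sums of the astrocyte markers (143771 to 151757 in TG, 142837 to 149534 in WT mice, led by Slc1a2 and Aldoc), of the oligodendrocyte markers (251807 to 260794 and 254219 to 287613, led by Mbp), of the endothelial markers (11142 to 11692 and 10388 to 11737, led by Slc2a1 and Flt1) and of the cortical neuron markers (26708 to 38185 and 31104 to 35701, led by Slc17a7 and Tbr1) overlapped too. Single astrocyte markers went both ways, 5 higher and 5 lower, with a median of -0.014. Of these 10, 2 were lower and 0 higher at an unadjusted limma P value under 0.05 (2.33% and 1.98% of all genes tested). Without overlap, 3 lay below and 1 above (5.05% and 5.06%). The choroid plexus markers, led by Enpp2 and Ttr, were higher in TG mice in 14 of 14 cases tested. Their median log2 ratio to WT mice was 2.98, 1.00 and -0.10 for TG replicates 1, 2 and 3. No listed marker had a mean of 0 over all mice, and zeros in single mice were not counted. The part of these cell types in the members' values was not tested.

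Some members share exon bases with another gene, and the kit does not mark strand, so reads of either gene cannot be told apart there. The largest overlap was that of Ctsd with Gm49369 on the same strand (34.4% of the exon bases of Ctsd). Next were those of Arsb with the lincRNA Gm26527 (32.3%), which had no reads, and of Ctsl with the antisense gene Gm47123 (26.8%). Gm49369 and Gm47123 were not among the genes with deposited counts, so no reads were listed for them. Fdft1 shares 12.8% of the exon bases of Ctsb, Pltp 10.5% of those of Ctsa, C230037L18Rik 18.8% of those of Arsa and Cap1 3.51% of those of Ppt1. Cap1 had the highest mean of these neighbours, 10265 normalized read counts. Atp6v0b shares 11.8% of its exon bases with Gm12841, an antisense gene with a mean of 6.14.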

How the data were processed

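Striatal RNA libraries (TruSeq v2, which does not mark strand) were trimmed by the authors with Trimmomatic 0.35, aligned to GRCm38 with TopHat2 2.1.0 and counted per gene with HTSeq, as the submitters' processing notes and the paper's methods state. The strand setting and annotation release are not given in the sources used here. The deposited signal holds, for each gene, its read count scaled by a size factor from DESeq2. Counts were recovered from it (100% of values whole within 0.01 reads). Groups were taken from the sample labels, and nothing says whether the mice shared litters.

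The test was limma 3.58.1 (R 4.3.3) with a mean-variance trend on log2(signal + 1), so fold changes of low genes are understated, with Benjamini-Hochberg adjustment over the 17605 genes whose mean was 10 or more, called at 0.05. It was also run on simulated data, with changes larger than that of any member. That run does not show whether changes of the members' size could be called. Replicate numbers were not used to pair the mice in the main test. Deviations from the genotype mean correlated at 0.047, 0.016 and 0.093 in same-numbered mice. These values cannot show whether mice shared a litter or a batch. Alternatives were edgeR 4.0.16, DESeq2 1.42.0, limma-voom, TMM, other filters (none, mean of 50), pseudocounts of 0.5 and 5, each mouse left out, a replicate block and, added after the data were seen, loess corrections (span 0.3) for length and GC content, for 17519 genes. Per-mouse values were given for genes picked by a rule: the smallest P values and the highest read count of each group of members. Arsa was added for its place beside Shank3. Members and lists were chosen with earlier results of these data known. Of the genes in the table, 45143 matched GENCODE M21. Promoter sequences are from RefSeq GRCm38.p6.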

Additional observations from a re-analysis of the deposited data

How the results depend on the processing

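None of the 41 members was called under any alternative, and the smallest adjusted P value of a member in any of them was 0.658 (limma without TG replicate 1), against 0.971 in the main test. Over all genes, 1 was called, 7 with DESeq2, 5 without a filter on low values and 1 to 2 with a mouse left out. With the replicate block, 1 gene and 0 members were called, and 2 members were higher and 1 lower at an unadjusted P value under 0.05, as without it. The labels do not say that same-numbered mice share more than a number, and not every mouse correlated best with its own number. The members higher at an unadjusted P value under 0.05 numbered 4 after the length correction and 1 to 3 with a mouse left out, where 1 was left without TG replicate 3 or WT replicate 3. The members lower were 0 after the GC correction. The median log2 fold change of the pump ranged from 0.013 (without WT replicate 3) to 0.059 (without WT replicate 1), was 0.016 without TG replicate 3 and 0.054 without TG replicate 2, and that of the hydrolases from -0.013 to 0.036.

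The sign turned in some alternative for 14 members with a mouse left out or another setting, all with a log2 fold change of at most 0.045 in size. Atp6v1g2 was -0.00025 with edgeR, -0.00030 with limma-voom and -0.0014 with TMM scaling. Hexa was 0.00020 with DESeq2, 0.021 after the length correction and 0.027 after the GC correction. Tpp1 was -0.00059 and Naglu 0.015 after the GC correction. Arsa was 0.0014 and 0.033, and Scarb2 -0.0026 and -0.0090, after the length and the GC correction. With a mouse left out, the ranges were -0.035 to 0.013 for Atp6v0a2, -0.074 to 0.0072 for Atp6v0c, -0.011 to 0.057 for Atp6v0e2, -0.055 to 0.054 for Atp6v1g2, -0.023 to 0.042 for Ctsd, -0.0024 to 0.057 for Ctsl, -0.011 to 0.032 for Tpp1, -0.080 to 0.118 for Gla, -0.057 to 0.046 for Hexa, -0.108 to 0.047 for Naglu, -0.042 to 0.030 for Arsa, -0.020 to 0.028 for Scarb2, -0.031 to 0.051 for Npc2 and -0.021 to 0.033 for Grn. The cause of these turns was not tested. The count of 3 mice per genotype limits what could be seen, as the median 95% interval of a member reached 0.12 on either side.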
